A study of Mus musculus with 2 samples.

Results

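The Langerhans cells described here are 102 of the 14146 cell barcodes in a droplet library of CD45+ cells sorted from mouse skin. They comprise 49 of the 7866 barcodes of DPCP-challenged skin at day 2 and 53 of the 6280 barcodes of control skin at day 0. The cells were selected on measured counts of UMIs, unique molecular identifiers that each stand for 1 captured molecule. A barcode needed at least 200 genes, at most 10% mitochondrial UMIs, at least 1 UMI of Cd207 and at least 1 of Epcam. It could hold fewer than 2 UMIs of Ccr7, fewer than 20 of S100a8 and S100a9 together, and none of Xcr1, Clec9a or Cd3e. Cd207 encodes langerin and Epcam an epithelial adhesion molecule, both of which mark Langerhans cells. Ccr7 marks maturing dendritic cells, Xcr1 and Clec9a type 1 conventional dendritic cells, S100a8 and S100a9 neutrophils, and Cd3e T cells. The levels of these 8 genes chose the cells and are given only as descriptions.

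DPCP, diphenylcyclopropenone, is a hapten used to elicit contact hypersensitivity. The DPCP cells came from skin on day 2 of the challenge and the control cells from skin at day 0, and all were CD45+ leukocytes sorted after Liberase digestion of full-thickness skin. Strain, sex, age, genotype, body site, the number of mice behind each condition and any vehicle on control skin are not given in the sources used here. Each condition is 1 tagged sample and both were run as 1 pool, which leaves no replication, and no p-value is given because the cells of a condition share 1 sample. All intervals below are 95% intervals that cover counting error only. The condition of a cell comes from the deposited tag tables, and the 2 lipid-anchored tag oligonucleotides are shown because they alone tell the conditions apart.
DPCP tag CMO309: gttgatctataacag
control tag CMO311: gaatcgtgattcttc
In the Langerhans cells, 92.9% of the tag UMIs of DPCP cells (lowest cell 72.0%) and 97.6% of those of control cells (lowest cell 91.9%) were of the cell's own tag. No barcode sequence was shared between the conditions.

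Langerhans cells are the antigen-presenting cells of the epidermis, where they sit between keratinocytes and hold to them through E-cadherin and EpCAM. They renew locally, depend on TGF-beta and on Csf1r signalling, and display antigen on MHC class II molecules. After contact with a sensitizer some of them detach, gain Ccr7 and migrate to the lymph node, and in inflamed epidermis monocyte-derived cells can also take on langerin.

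The DPCP Langerhans cells held 839849 UMIs (6001 to 58504 per cell, median 16673) and the control Langerhans cells 630237 (1828 to 26412 per cell, median 10223). They were 0.646% (exact binomial interval 0.478 to 0.853) of the 7588 DPCP barcodes that passed the gene and mitochondrial limits, and 1.07% (0.800 to 1.39) of the 4970 control barcodes. Many DPCP barcodes held neutrophil RNA. Among barcodes with fewer than 20 S100a8 and S100a9 UMIs, the share was 1.90% (1.41 to 2.50) in DPCP and 1.10% (0.824 to 1.44) in control skin, so the direction of the share depends on its base. In a CD45+ sort, fewer Langerhans cells released by digestion and fewer in the skin cannot be told apart.

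The label was checked against 3 markers that the selection did not use. Mfge8, which encodes a bridge between phosphatidylserine and integrins, stood at 2823 CPM (UMIs of the gene scaled to 1e6 of all summed UMIs) in DPCP and 1477 CPM in control Langerhans cells, against 112.5 and 12.9 CPM in all other barcodes of the same conditions. Ltc4s, the leukotriene C4 synthase, stood at 176 CPM in DPCP and 444 CPM in control Langerhans cells, against 9.33 and 12.6 CPM in the others. Cd24a, a surface sialoglycoprotein, was less distinctive, with 266 and 227 CPM against 343 and 189 CPM. Cd24a therefore does not set the DPCP cells apart, and it sets the control cells apart little, with a ratio of 1.20 (1.01 to 1.42) over the other control barcodes. UMIs of both Mfge8 and Ltc4s were found in 30 of 49 DPCP and 43 of 53 control Langerhans cells, against 0 of 177 DPCP and 0 of 197 control gamma-delta T cells chosen by Trdc. Mfge8 alone was found in 100% and 90.6% of Langerhans cells, against 18.6% and 15.2% of those T cells. Macrophages were not compared in this way. The C1q genes, typical of macrophages and described below, were higher in DPCP cells. Whether every DPCP cell is a Langerhans cell was not tested.

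Among the genes of the selection, Cd207 stood at 624 CPM in DPCP and 666 CPM in control Langerhans cells, and Epcam at 200 CPM in DPCP and 620 CPM in control cells. The median DPCP cell held 6 Cd207 and 2 Epcam UMIs, and the median control cell 4 and 7. Just inside the limits, 17 DPCP and 4 control cells had a single Epcam UMI. Just outside, 50 DPCP and 36 control barcodes failed only for want of an Epcam UMI. Those 50 DPCP barcodes held Mfge8 at 1682 CPM, while the 36 control barcodes held it at 2.12 CPM. The Epcam limit therefore leaves out DPCP barcodes that carry Cd207 and Mfge8. With at least 2 Cd207 UMIs and no Epcam limit, an alternative added after the data were seen, the log2 ratio of C1qa was 3.19 and that of Lgals3 4.10. A further 8 DPCP and 0 control barcodes failed only for 2 or more Ccr7 UMIs. Only the S100a8 and S100a9 limit left out 13 DPCP and 1 control barcodes, and only a Cd3e UMI 8 and 5. Those 13 DPCP barcodes held Epcam at 481 CPM, Mfge8 at 4363 CPM, H2-Aa at 3908 CPM and C1qa at 534 CPM. In the DPCP cells inside the limits these were 200, 2823, 2149 and 1474 CPM. A higher S100a8 and S100a9 limit was not tried.

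Markers of other cells were summed in both conditions. The selection capped S100a8 and S100a9, so neutrophil markers were summed without them: the other 6 came to 160 CPM in DPCP and 400 CPM in control Langerhans cells, against 4497 and 223 CPM in the other barcodes. Mmp9 alone made 92.9 and 327 CPM of the Langerhans cell sums, and held 206 of the 252 control UMIs. With S100a8 and S100a9 the sums were 639 and 831 CPM, against 44433 and 1329 CPM. Monocyte markers (7 of 7 in each) summed to 731 and 700 CPM, with medians per cell of 78.6 and 163 CPM. A single DPCP cell held 138 of the 141 Chil3 UMIs and 60 of the 62 Vcan UMIs. Mast cell markers were at 0 in both conditions, B cell markers were at 0 in DPCP cells and came from 1 control cell, and gamma-delta T cell and keratinocyte markers were under 20 CPM in each. Macrophage markers (7 of 7 in each) summed to 3588 CPM in DPCP and 824 CPM in control cells, against 834 and 1751 CPM in the other barcodes, and 1 cell of each condition had none. Without the 3 C1q genes, described below, the other 4 summed to 600.1 and 616 CPM, and Cd163 and Folr2 among them had 2 and 4 UMIs in DPCP cells and 12 and 1 UMIs in control cells. Type 1 dendritic cell markers summed to 504 and 576 CPM, type 2 markers to 404 and 693 CPM and mature dendritic cell markers to 34.5 and 420.5 CPM, with 1 control cell at 14962 CPM of the last. Cadm1 alone made 314 and 308 CPM of the type 1 sums, and Sirpa 385 and 516 CPM of the type 2 sums. The selection held Cd3e of the gamma-delta T cell list and Xcr1 and Clec9a of the type 1 list at 0. It also capped Ccr7 of the mature list, so the sums of these lists are in part fixed by the choice of cells. Because RNA released by other cells enters droplets, levels in Trdc cells, gamma-delta T cells of the same library (177 DPCP and 197 control cells, under the same S100a8 and S100a9 limit), are given beside the results as the background. Their median depth was 7531 UMIs in DPCP and 8315 UMIs in control skin. Control Trdc cells held Tnfrsf9 at 79.0 CPM and Scin at 64.0 CPM, against 9.66 and 4.06 CPM in all other control barcodes. For Cmah and Itgae the same levels were 127 and 441 CPM against 26.0 and 40.1 CPM. The Trdc level of these genes is therefore not a background. Cd209a cells, type 2 dendritic cells chosen by at least 2 Cd209a UMIs (165 DPCP and 612 control cells), are the closest comparison.

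A gene counted as measured with at least 50 UMIs over both conditions, which 5296 genes passed. Of these, 605 (11.4%) were at least 2-fold higher and 525 (9.91%) at least 2-fold lower in DPCP than in control Langerhans cells, and the median log2 ratio over all measured genes was 0.07. In the 22 gene lists described below a member counts as higher or lower past 1.5-fold, a size that 23.4% of all measured genes passed upward and 19.6% downward.

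**Figure D1:**
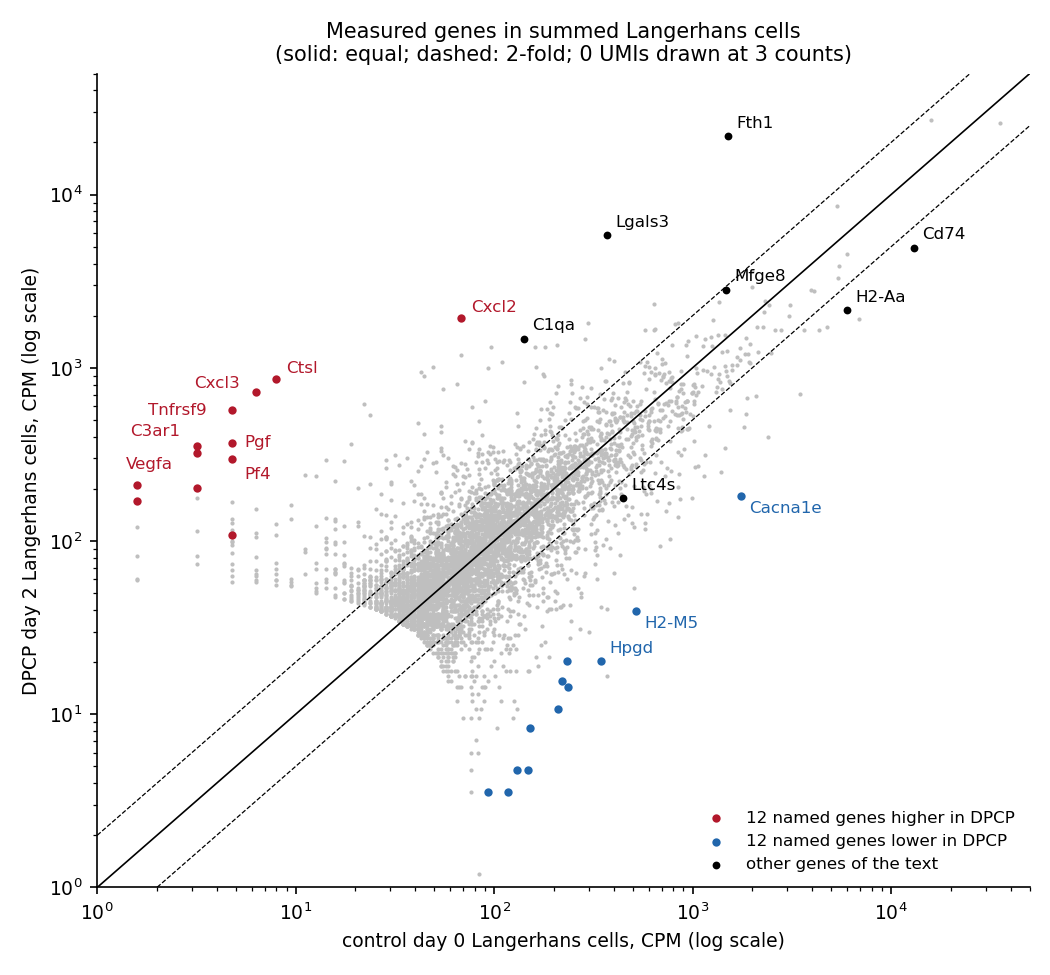
Each point is 1 of the 5296 measured genes, with its summed level in DPCP Langerhans cells (y axis, CPM, log scale) against control Langerhans cells (x axis, CPM, log scale). Fth1, Lgals3, Cxcl2 and C1qa lie far above the 2-fold line, and H2-Aa, Cd74, Hpgd, H2-M5 and Cacna1e lie below it; genes with 0 UMIs are drawn at 3 counts.

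The antigen-presentation genes of MHC class II were lower in DPCP Langerhans cells. Of 11 measured members of the list 8 were lower, 1 was higher and the median log2 ratio was -1.48, and H2-Oa and H2-Ob had too few UMIs to be measured. Summed over the list, the cells of DPCP skin held 1756 to 58159 CPM with a median of 7704, and those of control skin 10745 to 57735 CPM with a median of 34113. The ranges overlapped, and 28 of the 49 DPCP cells lay below the lowest control cell. H2-Ab1 and H2-Aa, the beta and alpha chains of I-A, stood at 1919 and 2149 CPM in DPCP and 6931 and 5993 CPM in control cells, with ratios of 0.277 (interval 0.261 to 0.293) and 0.359 (0.339 to 0.379). Cd74, the invariant chain that escorts class II molecules, stood at 4947 CPM in DPCP and 12978 CPM in control cells, a ratio of 0.381 (0.367 to 0.396). H2-DMa, a subunit of the peptide editor, had a ratio of 0.209 (0.178 to 0.245). Ciita, the master transactivator of class II genes, stood at 65.5 CPM in DPCP and 400 CPM in control cells, a ratio of 0.164 (0.120 to 0.220), with a UMI in 16 of 49 and 50 of 53 cells.

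The exception in the list was Lgmn, the lysosomal protease legumain, with 810 CPM in DPCP and 65.0 CPM in control cells and a ratio of 12.5 (9.08 to 17.5). Ctss, the protease that trims the invariant chain, had a ratio of 1.41 (1.252 to 1.599), short of 1.5-fold. In the Cd209a cells the DPCP over control ratios were 0.867 for H2-Aa, 0.835 for H2-Ab1 and 1.29 for Ciita. The background moved in the same direction as the Langerhans cells: Trdc cells held H2-Aa at 635 CPM in DPCP and 2118 CPM in control skin, and its part in the difference was not tested. For Ciita the Trdc cells held 43.6 and 92.1 CPM, and after thinning every cell to 1000 UMIs a Ciita UMI was seen in 6.12% of DPCP and 34.0% of control Langerhans cells, against 2.82% and 7.11% of Trdc cells. MHC class I did not follow class II: of 15 measured members of the class I list 4 were higher (Nlrc5, Tapbp, Tap2 and Psmb10) and 0 lower, with a median log2 ratio of 0.26. The share higher was close to the 23.4% of all measured genes past 1.5-fold upward. B2m, the class I light chain, had a ratio of 1.20 (1.09 to 1.31).

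Class II promoters share a Y box, a motif of the CCAAT family bound by NF-Y, which lies beside the sites of the complex that recruits CIITA. RefSeq promoter windows of GRCm38.p6 (250 bases before to 50 after the gene start) were matched by symbol for 8 genes: H2-Aa, H2-Eb1, H2-DMa, H2-DMb1, H2-DMb2, H2-Oa, H2-Ob and Ciita. Searched on both strands, ATTGG was found in 7 of these 8 windows (87.5%) and in 37.4% of 32851 windows of all genes. The longer TGATTGG, which contains it, was found in 6 of the 8 (75%) and in 7.82% of all windows. A match is a description of letters and not a bound site. The windows of H2-Aa and H2-Eb1, chains of I-A and I-E, are shown because these genes were lower together, with TGATTGG (or its reverse complement CCAATCA) in capitals. The match of H2-Aa begins 50 bases and that of H2-Eb1 61 bases before the gene start. The H2-Aa window is chr17:34287774-34288073 on the minus strand and the H2-Eb1 window chr17:34305617-34305916 on the plus strand.
H2-Aa promoter: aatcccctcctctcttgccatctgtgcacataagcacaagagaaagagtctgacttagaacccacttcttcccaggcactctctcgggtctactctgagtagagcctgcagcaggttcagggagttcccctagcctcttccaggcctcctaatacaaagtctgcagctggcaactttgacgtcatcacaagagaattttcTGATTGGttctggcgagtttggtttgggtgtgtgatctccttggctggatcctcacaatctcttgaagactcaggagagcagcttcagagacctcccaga
H2-Eb1 promoter: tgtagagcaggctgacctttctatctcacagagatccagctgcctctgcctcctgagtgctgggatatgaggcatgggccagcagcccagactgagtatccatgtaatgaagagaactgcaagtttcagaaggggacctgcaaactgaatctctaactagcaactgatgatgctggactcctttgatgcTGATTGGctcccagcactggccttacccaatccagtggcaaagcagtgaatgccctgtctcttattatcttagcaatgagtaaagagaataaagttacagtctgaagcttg

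The complement genes C1qa, C1qb and C1qc, which encode the 3 chains of C1q and are typical of macrophages, were higher in DPCP Langerhans cells. They lie side by side on the minus strand of chromosome 4 in mm10 (C1qb at chr4:136880129-136886187, C1qc at chr4:136889804-136893065 and C1qa at chr4:136895917-136898803). Their summed level per cell ran from 0 to 8129 CPM with a median of 2680 in DPCP cells, and from 0 to 1275 CPM with a median of 89.7 in control cells. In DPCP skin 31 of the 49 cells were above the highest control cell, while 4 had none. C1qa stood at 1474 CPM in DPCP and 141 CPM in control cells, a ratio of 10.4 (8.41 to 13.1), C1qb had a ratio of 20.2 (13.8 to 30.6) and C1qc one of 27.8 (16.4 to 51.1). Trdc cells held C1qa at 140 CPM in DPCP and 107 CPM in control skin, about the level of control Langerhans cells. After thinning to 1000 UMIs, a C1qa UMI was seen in 65.3% of DPCP and 13.2% of control Langerhans cells, against 2.26% and 6.09% of Trdc cells, and without thinning the shares were 85.7% and 49.1% of Langerhans cells against 14.1% and 17.3% of Trdc cells. The C1q genes were singled out after their values were seen, as members of the macrophage marker list. Of the other members, Adgre1 (F4/80) had a ratio of 1.25 (1.07 to 1.47) and Mrc1 one of 0.439 (0.321 to 0.596), or 0.273 without the richest cells, so the list did not move as a whole. In Cd209a cells the C1qa ratio was 7.14 (6.32 to 8.09) at a lower level, 352 CPM in DPCP and 49.3 CPM in control cells.

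**Figure D2:**
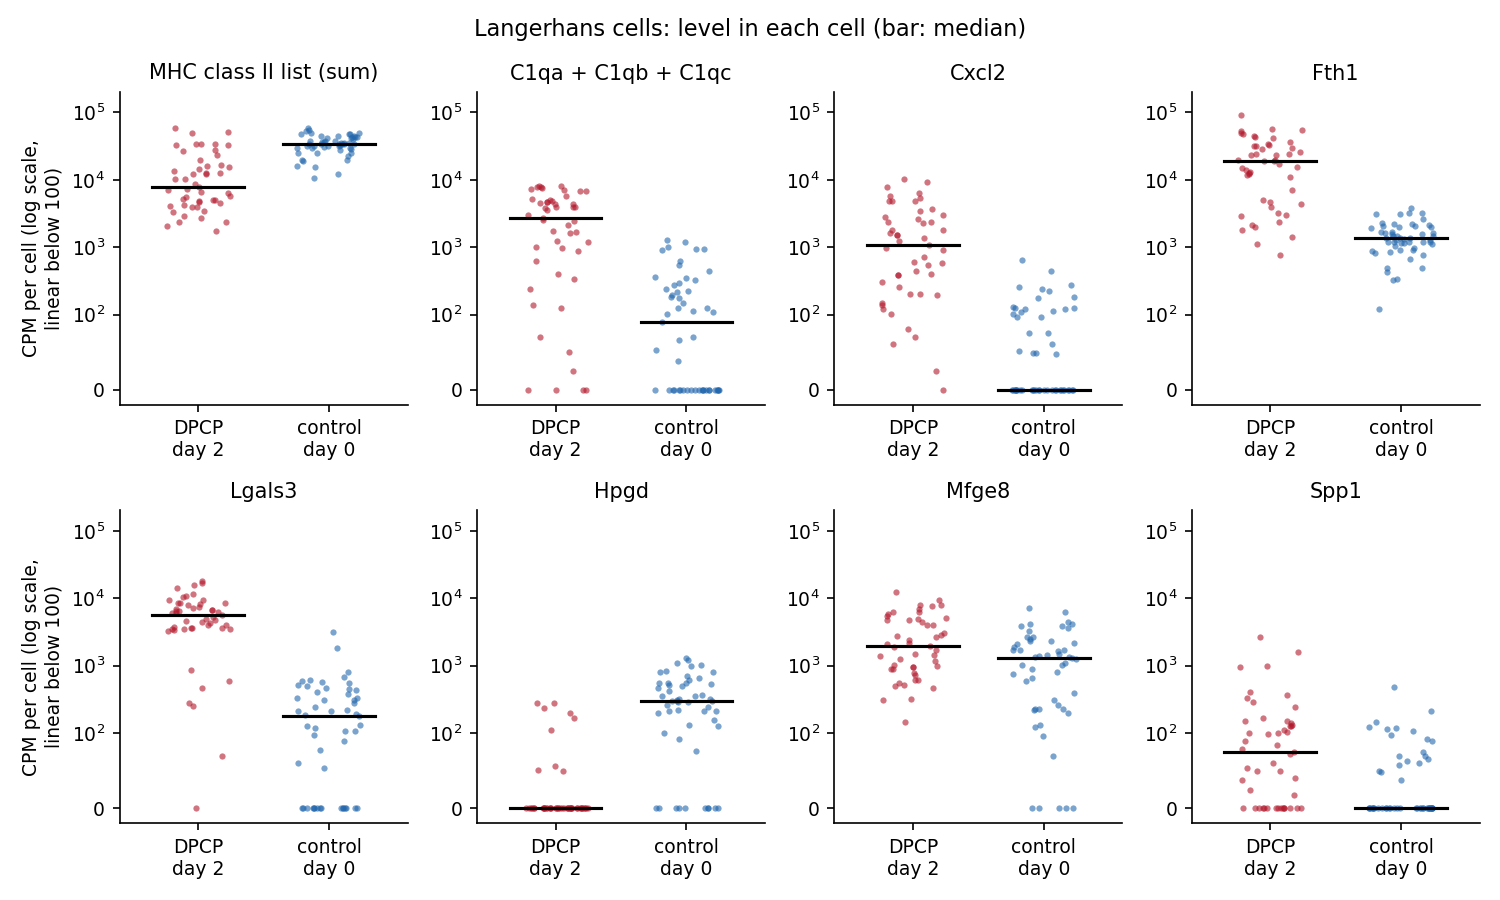
Each point is 1 Langerhans cell, with 49 DPCP cells on the left and 53 control cells on the right of each panel, the y axis gives CPM per cell (log scale, linear below 100) and the bar is the median. The C1q sum, Cxcl2, Fth1 and Lgals3 are higher and the MHC class II sum and Hpgd lower in most DPCP cells, while Mfge8 overlaps for most cells and Spp1 is high in 4 DPCP cells.

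Transcription factors of the lineage split into both directions: of 11 measured members 4 were higher and 5 lower, with a median log2 ratio of -0.26. Cebpb, a factor of inflammatory myeloid genes, stood at 645 CPM in DPCP and 90.4 CPM in control cells, a ratio of 7.14 (5.42 to 9.55), with UMIs in 47 of 49 and 25 of 53 cells. On the lower side, Runx3 and Id2, which Langerhans cells need to develop, had ratios of 0.372 (0.324 to 0.427) and 0.471 (0.386 to 0.572). Ahr, the aryl hydrocarbon receptor, had a ratio of 0.338 (0.253 to 0.448), and Zbtb46, a factor of conventional dendritic cells, 0.169 (0.0790 to 0.328). Spi1, which encodes PU.1, was short of 1.5-fold at 1.13 (0.968 to 1.32).

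Epidermal adhesion genes were lower or level, and Langerhans identity genes went both ways. Of 6 measured epidermal adhesion genes 4 were lower and 0 higher, with a median log2 ratio of -0.63. Leaving out cells with a UMI of the T cell receptor complex (43 DPCP and 44 control cells remained) gave 2 lower. Cdh1, which encodes E-cadherin, stood at 127 CPM in DPCP and 497 CPM in control cells, a ratio of 0.257 (0.204 to 0.321), with a UMI in 25 of 49 and 50 of 53 cells. Without the richest cell of each condition its ratio was 0.159. Itgae had a ratio of 0.484 (0.292 to 0.788), also carried unevenly (0.305 without the richest cells), and Ctnna1 and Ctnnd1, which link cadherins to actin, had ratios of 0.641 and 0.651. Itgae UMIs were in only 7 DPCP and 12 control Langerhans cells. Its levels were 34.5 and 71.4 CPM, against 300.5 and 441 CPM in Trdc cells. Cldn1, a tight-junction claudin, kept 348 CPM in DPCP against 441 CPM in control cells, a ratio of 0.788 (0.667 to 0.932). In the Langerhans identity list 3 of 11 were higher and 4 lower, with a median log2 ratio of -0.34. Of all measured genes 23.4% were higher and 19.6% lower by the same 1.5-fold limit. Mfge8 and Cd9, a tetraspanin, had ratios of 1.91 (1.77 to 2.06) and 2.19 (1.98 to 2.42), and Itgam one of 1.89 (1.54 to 2.33). Ltc4s and Ly75 (DEC-205) had ratios of 0.397 (0.323 to 0.486) and 0.435 (0.347 to 0.543). The myeloid survival receptor Csf1r stood at 861 CPM in DPCP and 600 CPM in control cells, a ratio of 1.43 (1.27 to 1.63).

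Another group was chosen by level in control skin alone: the 12 genes highest in control Langerhans cells over all other control barcodes, ranked by the lower interval bound of that ratio, with ratios of 184 to 422. Of these, 11 are described. None of the 11 was higher in DPCP than in control Langerhans cells. Frk, a Src-like kinase, and Cldn1 were nearest to level, and Frk stood at 119 CPM in DPCP and 175 CPM in control cells with a ratio of 0.682 (0.515 to 0.903). Tspan8, a tetraspanin, had a ratio of 0.443 (0.324 to 0.601). Scn3a, a sodium channel subunit, stood at 170 CPM in DPCP and 660 CPM in control cells, a ratio of 0.258 (0.212 to 0.313). The non-coding gene 1700030F04Rik, the alpha-1A adrenergic receptor Adra1a, the amino acid transporter Slc36a2, Tmem45b and Stxbp5l had ratios between 0.114 and 0.259, and without the richest cells those of Tmem45b and Stxbp5l were 0.0900 and 0.0701. H2-M5, a non-classical class I gene, stood at 39.3 CPM in DPCP and 517 CPM in control cells, a ratio of 0.0760 (0.0514 to 0.109), with a UMI in 5 of 49 and 47 of 53 cells. P2rx2, an ATP-gated channel, had UMIs in 4 of 49 DPCP and 46 of 53 control cells, and without the richest cells its ratio was 0.0487 in place of 0.0874. Because these genes were ranked on their control level, a lower DPCP level is in part built into the choice.

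**Figure D3:**
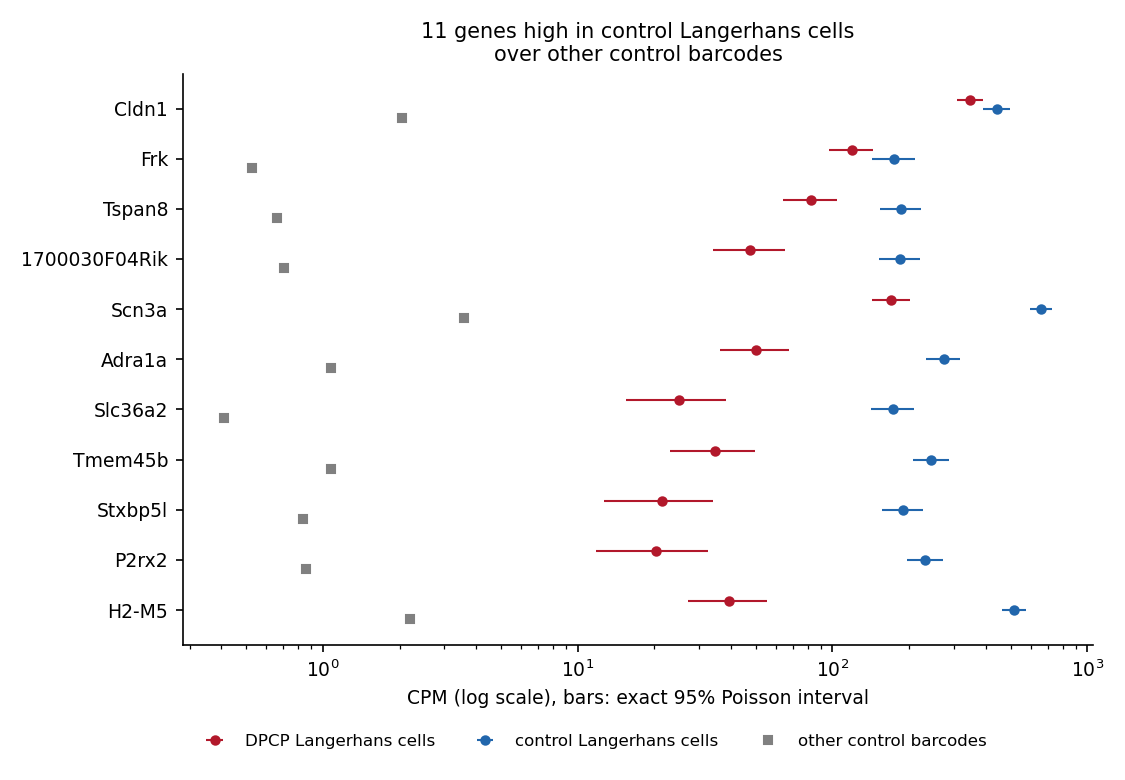
Levels (CPM, log scale) of 11 genes high in control Langerhans cells over other control barcodes, with exact Poisson intervals as bars: DPCP Langerhans cells in red, control Langerhans cells in blue and other control barcodes as grey squares. Cldn1 and Frk are nearest to level between the conditions (ratios 0.788 and 0.682), and H2-M5 and P2rx2 are furthest apart.

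The genes furthest lower in DPCP cells by the naming rule (ranked by the interval bound nearest 1) included Rbfox1, Cmah, Hpgd, Gm10248, Ffar2, H2-M5, Dlg2, Prex2, Cacna1e, Gna14 and P2rx2. Cacna1e, a voltage-gated calcium channel subunit, stood at 182 CPM in DPCP and 1758 CPM in control cells, a ratio of 0.104 (0.0869 to 0.123), or 0.0678 without the richest cells. A Cacna1e UMI was found in 17 of 49 DPCP and 51 of 53 control cells. After thinning the shares were 12.2% and 69.8%, against 0 of 177 DPCP and 0 of 197 control Trdc cells. Hpgd, the 15-hydroxyprostaglandin dehydrogenase that inactivates prostaglandins, stood at 20.2 CPM in DPCP and 347 CPM in control cells, a ratio of 0.0583 (0.0333 to 0.0954), with UMIs in 9 and 43 cells. Ffar2, a short-chain fatty acid receptor, had 9 UMIs in DPCP and 132 in control cells. Dlg2, a scaffold protein, had 12 and 148 UMIs, and Gna14, a G protein subunit, 13 and 138. A single DPCP cell held 51.5% to 61.5% of the DPCP UMIs of Ffar2, H2-M5, Dlg2 and Gna14, and without the richest cells their ratios were 0.0248, 0.0394, 0.0280 and 0.0310. Cmah, a sialic acid hydroxylase, had UMIs in 14 control cells, and its level summed over all control Langerhans cells was 117 CPM, beside 127 CPM over control Trdc cells. Few DPCP UMIs remained for Cmah, Gm10248, Prex2 and Rbfox1 (3, 4, 7 and 4), and without the richest cells their ratios were 0.0125, 0.0115, 0.0355 and 0.0289. All 4 DPCP UMIs of Rbfox1 were in 1 cell, so its value without that cell is computed from 3 DPCP counts.

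Eicosanoid genes, which make and sense prostaglandins and leukotrienes, were lower in DPCP cells. Of 11 measured members 9 were lower and 0 higher, with a median log2 ratio of -1.39. On the prostaglandin side, Ptgs1 (cyclooxygenase-1) stood at 266 CPM in DPCP and 746 CPM in control cells, a ratio of 0.356 (0.302 to 0.419), and Hpgds, the haematopoietic prostaglandin D synthase, at 570 CPM in DPCP and 1544 CPM in control cells, a ratio of 0.369 (0.330 to 0.413). Ptger4, a receptor of prostaglandin E2, had a ratio of 0.188 (0.0964 to 0.341). On the leukotriene side, Alox5 (5-lipoxygenase) had a ratio of 0.351 (0.292 to 0.420) and Alox5ap, its activating protein, 0.517 (0.435 to 0.614). Pla2g4a, which releases arachidonic acid, was short of 1.5-fold at 1.06 (0.844 to 1.34). The inducible Ptgs2 and Ptges had too few UMIs to be measured, 29 and 38 in DPCP cells against 5 and 1 in control cells. In Cd209a cells the ratios were 0.444 for Ptgs1, 1.68 for Hpgds and 1.22 for Alox5.

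Cytokine and chemokine genes were higher in DPCP cells: of 11 measured members 9 were higher and 2 lower, with a median log2 ratio of 2.97. Cxcl2, a neutrophil chemoattractant, ran from 0 to 10276 CPM per cell with a median of 1084 in DPCP, and from 0 to 653 CPM with a median of 0 in control cells. Its summed level was 1927 CPM in DPCP and 68.2 CPM in control cells, a ratio of 28.2 (20.9 to 39.2). All other barcodes held Cxcl2 at 3884 CPM in DPCP and 113 CPM in control skin, a ratio of 34.3 (33.4 to 35.2). After thinning, 71.4% of DPCP and 3.77% of control Langerhans cells held a Cxcl2 UMI, against 14.1% and 12.7% of Trdc cells. Without thinning the shares were 98.0% and 47.2% of Langerhans cells against 63.8% and 60.9% of Trdc cells, and the level of Trdc cells was 322 CPM in DPCP (157 CPM without 1 cell) and 97.2 CPM in control skin. Cxcl3, a close paralog, stood at 724 CPM in DPCP and 6.35 CPM in control cells, with 39.8% of the DPCP UMIs in 1 cell and a ratio of 92.4 without the richest cells. Il1rn, the interleukin-1 receptor antagonist, had a ratio of 20.6 (10.7 to 45.6), and Il1b one of 7.86 (5.52 to 11.5). Trdc cells held Il1b at 109 CPM in DPCP and 48.6 CPM in control skin, beside 424 and 53.9 CPM in Langerhans cells, and after thinning its shares were 18.4% and 0% of Langerhans cells against 10.7% and 4.57% of Trdc cells. Without thinning they were 73.5% and 43.4% against 50.8% and 39.6%. Ccl2, which attracts monocytes, had a ratio of 24.0 (9.15 to 89.5) but was found in only 12 DPCP cells. Ccl3 and Ccl4 had ratios of 8.96 and 2.69, Cxcl16 one of 5.83 (4.37 to 7.92) and Tnf one of 1.68 (1.07 to 2.67). The lower members were Il18, at 47.6 CPM in DPCP and 187 CPM in control cells, and Ccl22, of whose 234 control UMIs a single cell held 228. Without the richest cells the Ccl22 ratio was 0.251 in place of 0.0449. Il6, Il23a, Il12b and Cxcl9 had no UMI in either condition.

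The 12 genes furthest higher by the naming rule were Pf4, Ctsl, Cxcl3, Tnfrsf9, C3ar1, Vegfa, Pgf, Scin, Cxcl2, Mmp12, C3 and C5ar1. Most were also higher in all other DPCP barcodes. Their ratios there ran from 3.83 for Ctsl to 35.9 for Cxcl3, except 0.916 for Pf4 and 0.453 for C3ar1. Tnfrsf9, the costimulatory receptor 4-1BB, stood at 568 CPM in DPCP and 4.76 CPM in control cells, a ratio of 119 (40.6 to 581), and had UMIs in 43 of 49 and 2 of 53 cells. After thinning the Tnfrsf9 shares were 38.8% and 0%, against 9.60% and 5.08% of Trdc cells. Ctsl, the lysosomal protease cathepsin L, stood at 860 CPM in DPCP and 7.93 CPM in control cells, a ratio of 108 (46.2 to 335). Vegfa and Pgf, angiogenic ligands of the same family, stood at 324 and 367 CPM in DPCP and at 3.17 and 4.76 CPM in control cells, with ratios of 102 (28.0 to 847) and 77.0 (26.1 to 376). Vegfa had UMIs in 34 DPCP cells and 1 control cell and Pgf in 35 and 2, and Trdc cells held Vegfa at 7.37 and 0.935 CPM and no Pgf. The receptors of the complement fragments C3a and C5a, C3ar1 and C5ar1, had UMIs in 36 and 33 DPCP cells and in 2 control cells each, with ratios of 111 (30.6 to 924) and 63.4 (17.3 to 528). C3 itself had 91 UMIs in DPCP and 0 in control cells. With a floor of 3 counts over the control cells it was 22.8-fold higher (lower interval bound 18.1). However, DPCP Trdc cells held C3 at 63.3 CPM against the 108 CPM of DPCP Langerhans cells. Pf4, platelet factor 4, stood at 299 CPM in DPCP and had no UMI in control cells, 62.8-fold higher with the same floor (lower interval bound 50.7). Mmp12, a macrophage elastase, had 143 UMIs in DPCP and 1 in control cells, a ratio of 107 (18.9 to 4268). A single cell held 30.3% of the Pf4 and 44.1% of the Mmp12 UMIs of DPCP cells. Scin, an actin-severing protein, stood at 210 CPM in DPCP Langerhans and 71.3 CPM in DPCP Trdc cells. With so few control UMIs the ratios rest on single cells. Without the richest cell of each condition they were 119 for C5ar1, 184 for Pgf, 210.5 for C3ar1 and 328 for Tnfrsf9. For Mmp12, Scin and Vegfa this step removed every control UMI. Their values of 20.05, 34.2 and 60.7 are computed from 3 control counts and cannot be set against the full ratios.

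Pattern recognition genes were mixed, with 5 of 8 measured members higher and 3 lower and a median log2 ratio of 2.68. Clec4n (Dectin-2), a receptor of fungal mannans, stood at 1016 CPM in DPCP and 49.2 CPM in control cells, a ratio of 20.6 (14.4 to 30.6). Cd14, the co-receptor of lipopolysaccharide, had a ratio of 22.3 (13.4 to 40.2), with UMIs in 41 of 49 and 14 of 53 cells. Msr1, a scavenger receptor, had 69 UMIs in DPCP and 1 in control cells, a ratio of 51.8 (8.99 to 2074), but stood at 62.7 CPM in DPCP Trdc cells beside its 82.2 CPM. Without the richest cells no control UMI of Msr1 was left, and the value of 14.8 is computed from 3 control counts. Tlr2 and Tlr4 had ratios of 7.23 and 5.66. The lower members were Ly75, Mrc1 and Clec4a2, an inhibitory lectin at 0.654 (0.375 to 1.13).

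Genes of oxidant defence and of low-oxygen metabolism were higher in DPCP cells. Of 12 measured genes of the NRF2 and metallothionein list 10 were higher and 1, the metallothionein Mt1, was lower, with a median log2 ratio of 2.19. Fth1, the ferritin heavy chain that stores iron, ran from 769 to 92638 CPM per cell with a median of 18808 in DPCP, and from 123 to 3840 CPM with a median of 1372 in control cells. Its summed level was 21709 CPM in DPCP and 1503 CPM in control cells, a ratio of 14.4 (13.5 to 15.4), and 39 of 49 DPCP cells lay above the highest control cell. Srxn1, Slc7a11 and Hmox1, targets of NRF2 in oxidant defence, had ratios of 10.1, 9.57 and 8.15, and Txn1, thioredoxin, 7.29 (6.01 to 8.92). In Cd209a cells the Fth1 ratio was 1.17 and that of Txn1 1.14. Of 14 measured glycolysis and hypoxia genes 10 were higher and 0 lower, with a median log2 ratio of 1.27. Besides Vegfa, Hilpda, a lipid droplet protein, had 101 UMIs in DPCP and 1 in control cells, a ratio of 75.8 (13.3 to 3023) that was 19.6 without the richest cells. Hif1a had a ratio of 4.76 (3.52 to 6.58) and the glucose transporter Slc2a1 3.80 (2.24 to 6.81). Lgals3, which encodes galectin-3 and is in none of the lists, was singled out after its values were seen. It ran from 0 to 17735 CPM per cell with a median of 5591 in DPCP, and from 0 to 3163 CPM with a median of 179 in control cells, a ratio of the sums of 15.6 (13.7 to 17.9). For Lgals3 42 of the 49 DPCP cells were above the highest control cell, and Trdc cells stood at 1466 CPM in DPCP and 604 CPM in control skin.

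In the lists of signalling, survival, heat shock and respiration genes, every measured member past 1.5-fold was higher in DPCP cells. Of 15 measured NF-kappaB subunits and feedback genes 10 were higher and 0 lower (median log2 ratio 0.88), led by Bcl3 at 9.94 (3.66 to 37.8) and Nfkbia, the inhibitor IkB-alpha, at 5.30 (3.87 to 7.42). Without the richest cells these were 17.2 for Bcl3 and 8.63 for Nfkbia. Of 11 measured AP-1 and immediate early genes 9 were higher and 0 lower (1.07), with Dusp1, a phosphatase of MAP kinases, at 8.54 (6.01 to 12.5), while Jun was short of 1.5-fold at 0.95 (0.723 to 1.25). The transcription factors Egr1, Maff and Atf3 had ratios of 7.35, 7.05 and 3.27. Of 8 measured apoptosis and survival genes 7 were higher and 0 lower (1.59), among them both the death gene Bcl2l11 at 5.92 (2.95 to 13.5) and the survival gene Mcl1 at 2.88 (2.48 to 3.36). The related Bcl2a1b and Bcl2a1d, at 3.73 and 3.16, are near-identical copies whose reads may be split between them, and Bcl2a1d was at 5.98 without the richest cells. Of 10 measured heat shock genes 6 were higher and 0 lower (0.79). The inducible pair Hspa1a and Hspa1b, with 72 and 80 UMIs in DPCP and 0 in control cells, are also near-identical and came from 10 and 9 cells. Without the richest cell their ratios, with a floor of 3 control counts, were 3.20 and 2.71. Hsph1 and Hsp90aa1, chaperones of the large Hsp110 and Hsp90 families, had ratios of 4.23 and 2.21. Of 14 measured oxidative phosphorylation genes 6 were higher and 0 lower (0.51), with Ndufa4, a respiratory chain subunit, at 2.01. Of 4 measured colony-stimulating factor receptors 2 were higher and 0 lower (1.18). The pair were Csf2rb and Csf2rb2, receptor chains for GM-CSF and interleukin-3, at 4.22 (3.33 to 5.40) and 3.57 (2.59 to 5.02).

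Genes of dendritic cell maturation did not move as one. Of 12 measured members 4 were higher and 2 lower, with a median log2 ratio of 0.27, close to that of all genes. Cd80 and Cd63 had ratios of 6.23 (3.22 to 13.5) and 5.03 (4.12 to 6.19) and Cd86, the other ligand of CD28, 1.54 (1.34 to 1.78), which was 1.28 without the richest cells. Cd40 and Ccl22 were the lower members, and Fscn1, Il4i1, Ccl17, Socs2, Il12b, Cacnb3 and Cd200 had too few UMIs. The selection removed cells with 2 or more Ccr7 UMIs, which are those that mature most. The 8 DPCP barcodes left out for Ccr7 alone held H2-Aa at 4485 CPM and C1qa at 81.5 CPM, against 2149 and 1474 CPM in the DPCP cells inside the limit. Of 4 measured type I interferon genes 1 (Bst2) was higher and 0 lower (median log2 ratio 0.39), and 12 of 16 matched members had too few UMIs. Of 4 measured cell cycle genes 1 was higher and 2 lower (median -0.22): Cdkn1a, the arrest gene p21, stood at 413 CPM in DPCP and 44.4 CPM in control cells, and Ccnd1, cyclin D1, at 17.9 CPM in DPCP and 148 CPM in control cells. Mki67 had 3 UMIs in DPCP and 30 in control cells, and Top2a 3 and 22. Of 8 measured TGF-beta signalling genes 2 (Itgav and Skil) were higher and 1 (Smad7) lower, with a median of -0.0038, and Tgfbr1 was short of 1.5-fold at 0.776 (0.638 to 0.944). Of 4 measured checkpoint and costimulatory ligands 0 were higher and 1 (Cd200r1) was lower (median -0.23).

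**Figure D4:**
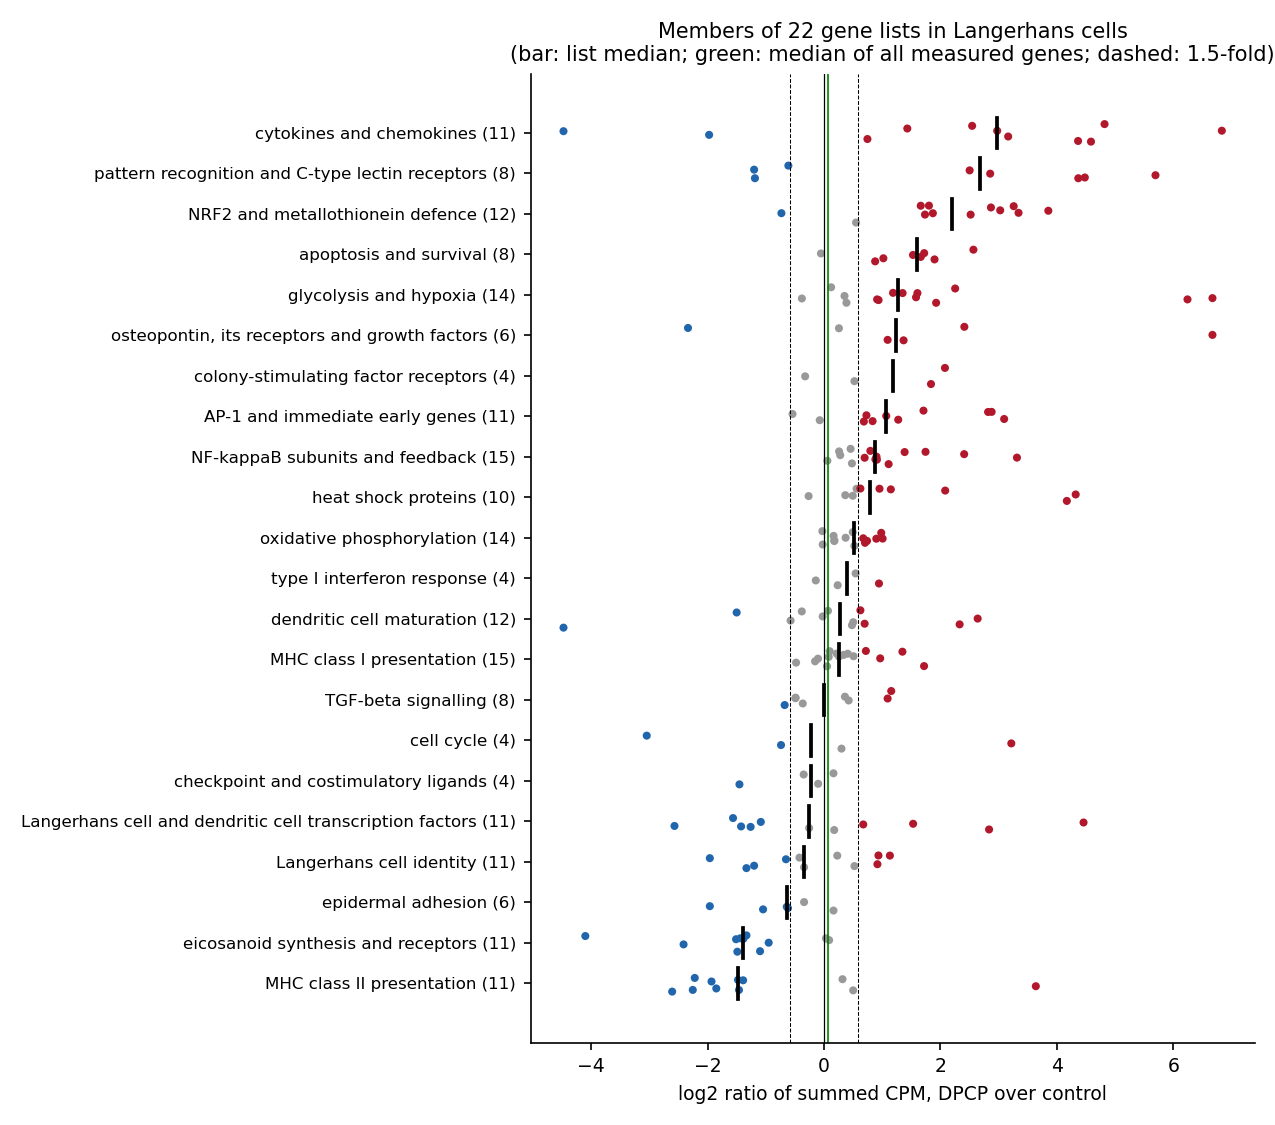
Each point is a measured member of a gene list (number of measured members in brackets), placed by its log2 ratio of summed CPM, DPCP over control, in Langerhans cells, with black bars at the list medians. Genes without control UMIs are placed at the ratio computed from 3 control counts. Cytokines and chemokines (median 2.97), pattern recognition (2.68) and NRF2 defence (2.19) lie furthest right, and MHC class II (-1.48) and eicosanoid genes (-1.39) furthest left.

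Spp1, the osteopontin gene of the study's title, was in the list of osteopontin, its receptors and growth factors, of which 4 of 6 measured members were higher and 1 (Itga4) lower, with a median log2 ratio of 1.23. It stood at 211 CPM (181 to 244) in DPCP and 39.7 CPM (25.7 to 58.6) in control Langerhans cells, a ratio of 5.31 (3.48 to 8.43). A few cells carried the difference: 4 DPCP cells held 66.7% of the 177 DPCP UMIs and were the only ones with at least 10 (8.16% of cells, 2.27 to 19.6), the next cell held 8, and no control cell held more than 5. Trdc cells stood at 127 CPM in DPCP and 45.3 CPM in control skin, but 1 DPCP Trdc cell held 93 of 206 UMIs, and without it the DPCP level was 69.6 CPM. Cd209a cells stood at 54.4 and 44.3 CPM, while all other DPCP barcodes stood at 1629 CPM. After thinning, a Spp1 UMI was seen in 10.2% of DPCP and 3.77% of control Langerhans cells, against 7.91% and 4.06% of Trdc cells. Thinned to 2000 UMIs the shares were 32.7% (19.9 to 47.5) and 5.77% of Langerhans cells, against 16.4% (11.3 to 22.7) and 10.99% of Trdc cells, so the standing of the DPCP share above the background depends on the depth. Without thinning the shares were 69.4% and 37.7% of Langerhans cells against 41.8% and 36.0% of Trdc cells. Cd44, a receptor of osteopontin, had a ratio of 2.58 (2.30 to 2.89) with a UMI in every cell of both conditions, Itgav one of 2.13 (1.59 to 2.89) and Itga4 one of 0.198 (0.131 to 0.291), or 0.0901 without the richest cells.

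The DPCP cells were not uniform. For Lgals3, 7 of the 49 DPCP cells lay within the control range, and 6 of these 7 had an MHC class II sum between 26383 and 58159 CPM, while that of the other was 1756 CPM. These 7 cells held 81.5% to 95.2% own tag. Hpgd, found in 9 DPCP cells, had a UMI in 5 of the 7. Leaving out the 3 DPCP cells with under 80% own tag changed the direction of none of the ratios recomputed.

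Among the 49 DPCP cells, the C1q sum went with Fth1 (Spearman's rank correlation 0.62), and Vegfa went with Fth1 (0.63) and Cxcl2 (0.59). The MHC class II sum went with Mfge8 (0.53) and the C1q sum (0.39) and against Cxcl2 (-0.35). Among the 53 control cells the same pairs had correlations between -0.15 and 0.16. These are descriptions across cells of 1 sample that share a library, and most control values of C1q, Vegfa and Cxcl2 are at or near 0. The rank correlation with the UMI total of the cell was -0.15 for the MHC class II sum and -0.02 for Fth1 in DPCP cells.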

How the data were processed

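CD45+ skin cells of both conditions, marked with different tag oligonucleotides, were run as 1 pool of 1 tagged sample per condition. The authors deposited raw UMI counts per gene and barcode, not normalized, for 32285 genes and 12 tags. The counts came from Cell Ranger 7.0.0 with an mm10 reference, per the file headers and the deposited configuration table, while the submitters' processing notes name Cell Ranger 6.1.1 and Seurat 4.0.1. The condition of a barcode was read from its suffix and the deposited order of aggregation, and tag sequences from the deposited tag table.

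From these counts, the UMIs of a condition's cells were added up and expressed as CPM, each with its exact Poisson interval. Ratios of DPCP over control carry exact conditional binomial intervals, and shares Clopper-Pearson intervals, all at 95%. These cover counting error only, and UMIs of 1 cell are not independent, so no interval speaks for other mice. For a gene with no UMI, the ratio was computed from 3 counts in the condition as a whole, and it is not an interval bound. Shares of cells were also computed after thinning each cell to 1000 UMIs, which left out no Langerhans cell, and for Spp1 also to 2000 UMIs, which left out 1 control Langerhans cell and 6 control Trdc cells. Genes were named by a rule: the 12 highest and 12 lowest ratios by the interval bound nearest 1 (at least 2-fold, 20 CPM and 10 cells in the higher condition), the 12 most specific to control Langerhans cells by the same ranking, up to 4 members of each list by size, and Spp1. Some genes that the rule selects are not reported here. Other list members named for their role were picked after their values were seen. The members and lists were chosen with earlier results of these data known. Of the listed symbols, 4 had no single match. Scrublet marked too few barcodes to be taken as working, so doublets were not removed, and leaving out the 5% highest scores was tried instead. The script was tested on simulated counts. Gene positions are from GENCODE M21 (mm10) and promoters from RefSeq. Python 3.11.15, numpy 2.4.6, scipy 1.17.1, pandas 2.3.3, scanpy 1.11.5, matplotlib 3.10.9, R 4.3.3 and edgeR 4.0.16 (TMM scaling only) were used. No test was made, for want of replicates.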

Additional observations from a re-analysis of the deposited data

How the results depend on the processing

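No paired analysis was possible because each condition is 1 tagged sample. Of 1860 recomputed ratios of named genes, 1641 stayed within the counting interval of the reported value, 214 left it and 5 turned round. Of 374 recomputed counts of list members past 1.5-fold, 51 moved by over 1.5 times. Requiring 2 UMIs each of Cd207 and Epcam left 28 DPCP cells (0.369% of filtered barcodes, and 0.785% in control skin) and turned the log2 ratios of Ccl22 (1.22) and Cd200r1 (0.043); Hspa1b then had 3 DPCP and 0 control UMIs, which gives no direction. Fewer than 5 S100a8 and S100a9 UMIs left 6 DPCP and 26 control cells (0.0791% and 0.523%), with 135 genes at least 2-fold higher, 306 lower and Spp1 at 1.78 on the log2 scale, and turned Smad7 (0.57) and Hmgb2 (0.25); fewer cells and genes entered. At least 80% own tag left 46 DPCP Langerhans cells and gave a DPCP share of 0.973%. This limit also cut the DPCP barcodes that the share is taken over, so its rise does not mean more Langerhans cells. A minimum of 10 summed UMIs gave 1246 genes higher and 1276 lower, and one of 200 gave 223 and 159. Chosen after seeing the data, at least 5 Cd207 UMIs left 29 DPCP and 22 control cells (0.382% and 0.443%) and turned Cd200r1 (0.32), and at least 2 Cd207 UMIs with no Epcam limit left 70 DPCP and 40 control cells, with a DPCP share of 0.922%, Spp1 at 3.52, C1qa at 3.19 and Lgals3 at 4.10. Unless a cause is stated it was not tested. Over all settings the log2 ratio of C1qa ran from 3.14 to 3.99 and that of H2-Aa from -1.63 to -0.96. Scaling moved the median of all genes between 0.03 and 0.08.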
